A study of Mus musculus with 12 samples.

Results

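Interferon-stimulated effector genes encode the proteins that carry out the antiviral response to type I interferon, and 38 of them were followed across 12 whole-brain samples of C57BL/6 mice. The genes were chosen by name as antiviral effectors, sensors of foreign RNA and DNA, and ubiquitin-like modifiers. Transcription factors of the pathway, guanylate-binding proteins and chemokines were not included. All 38 symbols were among the 16482 genes of the count table, and 36 had enough counts to be tested. The samples formed 3 groups of 4. One group received PBS, the second conduritol B epoxide (CBE), and the third CBE together with GZ-667161. CBE is an irreversible inhibitor of the lysosomal enzyme glucocerebrosidase and is used to model neuronopathic Gaucher disease, in which the lipid glucosylceramide accumulates. GZ-667161 inhibits glucosylceramide synthase, the enzyme that makes this lipid, and the comparison of the third group with the second addresses whether it changes the effect of CBE. Age differed within the CBE group, whose replicates 2 and 3 were taken on postnatal day 34 and replicates 4 and 6 on day 40. All samples of the other groups were taken on day 40. No group received GZ-667161 alone.

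Type I interferons bind the receptor formed by IFNAR1 and IFNAR2, and the kinases JAK1 and TYK2 pass the signal on by phosphorylation. A transcription factor complex that contains IRF9 then enters the nucleus and binds a DNA element, the interferon-stimulated response element, in the promoters of many interferon-stimulated genes. The products of such genes block viral RNA translation, degrade RNA, trap virions at the membrane, tag proteins with ISG15, or sense further nucleic acid. In brain, microglia, astrocytes, endothelial cells and neurons can all respond to interferon.

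Libraries were made by bulk MARS-seq, a method that counts tags from the 3' ends of transcripts. Levels are given in the usual CPM unit, a gene's count relative to the total of its library after TMM scaling, and they are not compared between genes. The libraries held 1753626 to 6499257 counts, fewest in both CBE samples of day 34. Differences are log2 fold changes with standard errors (SE) from edgeR's quasi-likelihood test, fitted over 12623 genes, and a gene passed when its Benjamini-Hochberg adjusted p was under 0.05. Whether every sample is from a different mouse is not said in the labels, and the p-values reflect only the scatter among these 12 libraries, which may be partly technical. Xist, the transcript of the inactive X chromosome, was at most 0.555 CPM in every CBE library. It was 7.96 to 25.7 CPM in 2 PBS libraries (replicates 4 and 5) and in 3 libraries of CBE+GZ-667161 (replicates 2, 3 and 5), so libraries of both sexes were unevenly spread over the groups. Since PBS and CBE+GZ-667161 held both sexes and CBE held 2 ages, each group came from more than 1 mouse. With Xist as a term in the fit the number of the 38 genes that passed was 35, 32 and 0 in the 3 comparisons below, as without it.

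Nearly all of the effector genes were higher in the brains of CBE-treated mice, by a median log2 fold change of 2.58 over the 36 tested genes. In the comparison of CBE with PBS 35 of 36 passed as higher and 0 as lower, where 6.95% of all tested genes passed as higher and 4.04% as lower and the median over all tested genes was -0.01. The gene that did not pass was Sp100. The lowest CBE sample lay above the highest PBS sample in 32 of the 38 genes, against 8.61% of all tested genes. Some genes that are low with PBS may have entered the test through their level in a treated group, which favours a difference. Of the 20 genes whose 4 PBS samples all exceeded the filter's minimum, 20 passed as higher, and of the 16 others 15 did. In whole brain, more cells of a responding type and more RNA per cell cannot be told apart.

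The effector genes were also higher in the mice that received both CBE and GZ-667161. Against PBS, 32 of 36 passed as higher and 0 as lower, where 3.11% of all tested genes passed as higher and 0.333% as lower. The median log2 fold change was 2.42, and over all tested genes it was -0.00024. Trim25, Slfn5, Dtx3l and Sp100 did not pass. The 4 samples of CBE+GZ-667161 lay above the 4 PBS samples in 35 of 38 genes, where 6.65% of all tested genes did. The comparisons with PBS share the same 4 PBS samples, so they are not independent of each other. In the authors' deposited table, 37 of the 38 genes were called for CBE against PBS, 33 for CBE+GZ-667161 against PBS and 0 for CBE+GZ-667161 against CBE. Of all 16505 entries of the authors' deposited table, 9.75% and 3.27% were called in the comparisons with PBS, in either direction. The share for CBE+GZ-667161 against CBE is not given here, so the 0 there has no background to be read against.

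**Figure D1:**
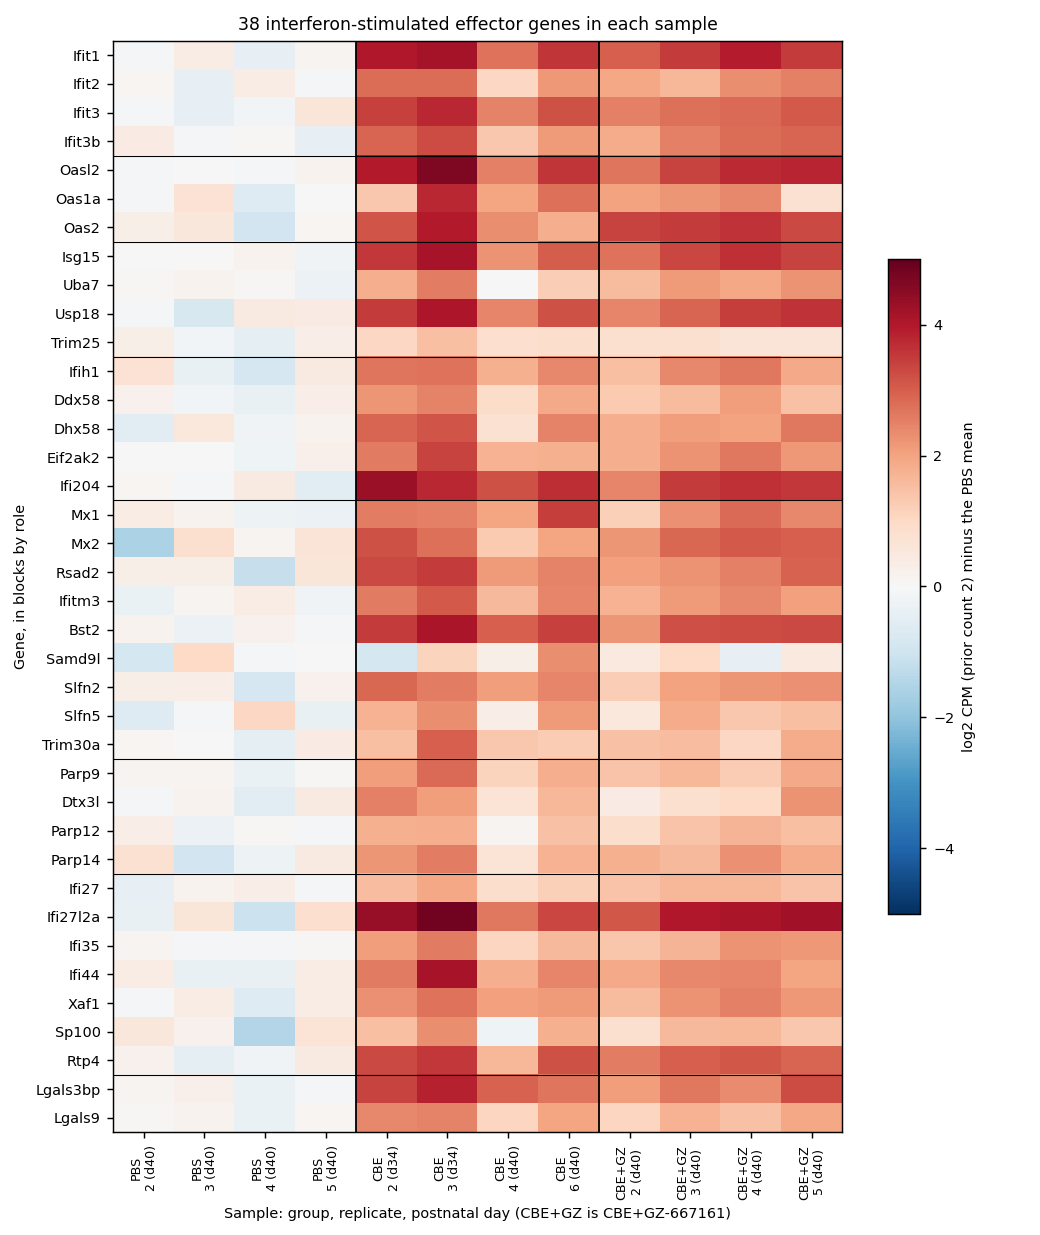
Each cell is the log2 CPM (prior count 2) of 1 gene in 1 sample minus the mean of the 4 PBS samples, with genes in blocks by role and samples in columns by group, replicate and postnatal day. The median over the 38 genes ran from -0.22 to 0.16 in the PBS samples, from 1.64 to 2.90 in the CBE samples and from 1.81 to 2.399 in the CBE+GZ-667161 samples.

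**Figure D2:**
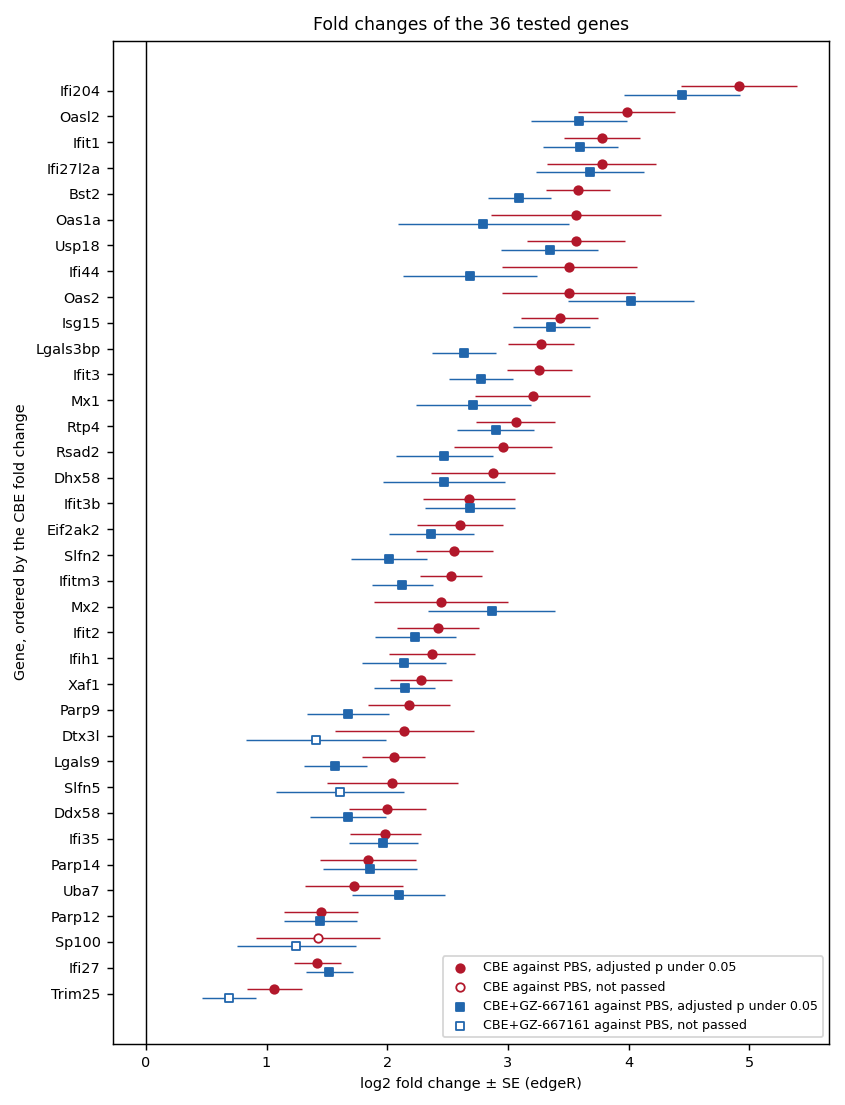
Points are log2 fold changes of the 36 tested genes and bars are SE, with CBE against PBS in red circles and CBE+GZ-667161 against PBS in blue squares; open symbols did not pass. Every point lies above 0, from 1.06 to 4.91 for CBE and from 0.69 to 4.44 for CBE+GZ-667161.

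The promoters of these genes were searched for the interferon-stimulated response element. The genes were chosen by name as interferon-stimulated effectors, so a high share with this element can follow from that choice alone. Sequences of 250 bases before to 50 after the start site (RefSeq, GRCm38.p6) were found for 27 of the 38 genes, in 30 promoters. The core of the interferon-stimulated response element was searched as GAAA, any 2 bases and GAAA again, on both strands, with overlapping matches kept. It occurred in 14 of the 27 genes and in 15 of the 30 promoters (50%), whereas 3.44% of all 32851 promoters in the table held it. The interferon-gamma-activated site, a related promoter element, was searched as TTCNNNGAA, a pattern that reads the same on both strands. It occurred in 6 of the 30 promoters (20%) and in 8.3% of all promoters. A match is a description of letters and not of binding. The promoters below belong to the 4 genes with the smallest p in CBE against PBS among those with the core and with values given per sample, written 5' to 3' in the direction of transcription, with the matches to this core in capitals.
Bst2 (chr8:71537423-71537722, minus strand): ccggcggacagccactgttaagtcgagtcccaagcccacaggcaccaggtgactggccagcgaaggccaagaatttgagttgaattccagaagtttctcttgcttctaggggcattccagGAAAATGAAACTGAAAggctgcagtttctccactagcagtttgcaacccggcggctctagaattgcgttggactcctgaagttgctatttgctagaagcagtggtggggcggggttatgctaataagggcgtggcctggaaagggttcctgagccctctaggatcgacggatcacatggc
Ifit3 (chr19:34583279-34583578, plus strand): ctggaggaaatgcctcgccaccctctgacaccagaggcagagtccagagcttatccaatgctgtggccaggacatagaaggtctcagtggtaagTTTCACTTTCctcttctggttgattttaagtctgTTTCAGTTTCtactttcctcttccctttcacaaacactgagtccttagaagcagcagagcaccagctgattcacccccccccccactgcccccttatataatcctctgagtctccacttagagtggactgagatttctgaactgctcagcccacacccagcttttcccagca
Isg15 (chr4:156200769-156201068, minus strand): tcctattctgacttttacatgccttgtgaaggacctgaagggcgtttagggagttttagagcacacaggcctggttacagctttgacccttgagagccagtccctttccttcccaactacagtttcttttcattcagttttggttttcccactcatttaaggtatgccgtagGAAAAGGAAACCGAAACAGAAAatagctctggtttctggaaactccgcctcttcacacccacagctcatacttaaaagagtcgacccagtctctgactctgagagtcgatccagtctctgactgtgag
Rsad2 (chr12:26456403-26456702, minus strand): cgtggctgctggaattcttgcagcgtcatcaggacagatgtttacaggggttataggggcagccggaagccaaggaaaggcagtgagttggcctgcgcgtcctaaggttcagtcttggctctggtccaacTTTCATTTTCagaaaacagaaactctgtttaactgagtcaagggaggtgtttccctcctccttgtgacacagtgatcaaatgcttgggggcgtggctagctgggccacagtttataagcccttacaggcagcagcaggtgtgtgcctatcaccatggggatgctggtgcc

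Positions are counted from the start site, and each is the 5' end of the match on the strand shown. Isg15 held 3 overlapping matches on the strand shown, at -78, -72 and -66, and Bst2 held 2 overlapping ones at -130 and -124. Bst2 also held TTCCAGGAA at -136, which overlaps the first of these. Ifit3 held 2 separate matches on the opposite strand, at -156 and -122. Its neighbour Ifit3b held the same pair of cores, TTTCACTTTC and TTTCAGTTTC, at -188 and -154. Rsad2 held 1 match, at -120. The other genes with the core were Ifit1, Oas1a, Ifih1, Ddx58, Eif2ak2, Ifitm3, Slfn5, Trim30a and Lgals9. Of the genes with a promoter in the table, Ifit2, Oasl2, Uba7, Trim25, Samd9l, Slfn2, Dtx3l, Parp12, Ifi35, Ifi44, Xaf1, Sp100 and Lgals3bp held no match in this window, which says only that these letters are absent from it. The promoters of Oas2, Usp18, Dhx58, Ifi204, Mx1, Mx2, Parp9, Parp14, Ifi27, Ifi27l2a and Rtp4 were not examined.

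The 4 genes of the IFIT family, whose proteins bind viral RNA and stop its translation, all passed as higher in both treated groups, with log2 fold changes of 2.42 to 3.78 for CBE and 2.23 to 3.60 for CBE+GZ-667161 against PBS. They lie side by side on chromosome 19. In this and the following sentences, values are listed for PBS replicates 2, 3, 4 and 5, then CBE replicates 2 and 3 (day 34) and 4 and 6 (day 40), then CBE+GZ-667161 replicates 2, 3, 4 and 5. Ifit3 (chr19:34583531-34588731, plus strand) had 8.47, 6.60, 7.96 and 13.5 CPM with PBS, 100.2, 127, 51.5 and 85.8 CPM with CBE, and 52.7, 62.2, 66.1 and 78.4 CPM with CBE+GZ-667161. Every treated sample was above every PBS sample, and the 2 day 34 CBE samples were the highest of the 12. The fold change of Ifit3 against PBS was 3.26 ± 0.27 (SE) for CBE (edgeR adjusted p = 3.82e-07) and 2.77 ± 0.27 for CBE+GZ-667161 (adjusted p = 5.62e-06). Ifit3b, its near copy, had 6.61, 4.68, 5.03 and 3.54 CPM, then 39.9, 51.7, 13.3 and 23.2 CPM, then 19.1, 30.3, 37.3 and 40.1 CPM. Its day 40 CBE samples were both below 3 of the 4 CBE+GZ-667161 samples, and its fold changes against PBS were 2.68 ± 0.38 (adjusted p = 1.44e-04) and 2.69 ± 0.37 (2.02e-04). The last 500 bases of the Ifit3 transcript share 14.9% of their 50-base windows with Ifit3b, so some tags could be counted for either gene. Ifit1 rose from 4.10 ± 1.02 CPM (SD, n = 4) with PBS to 59.5 ± 23.0 with CBE and 51.9 ± 13.5 with CBE+GZ-667161. Ifit2 rose from 6.48 ± 1.55 CPM to 34.6 ± 15.98 and 30.1 ± 7.98.

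Oligoadenylate synthetases make the second messenger that activates the RNA-cutting enzyme RNase L. The 3 genes of this family all passed as higher against PBS in both treated groups. Oasl2, a synthetase-like protein, had 3.97, 4.04, 3.77 and 4.77 CPM with PBS, 72.2, 118, 26.3 and 56.0 CPM with CBE, and 29.8, 48.3, 61.7 and 65.5 CPM with CBE+GZ-667161. Its PBS samples were closely alike, while the CBE samples spanned a range that held all 4 CBE+GZ-667161 samples. The fold change of Oasl2 was 3.98 ± 0.40 for CBE (adjusted p = 3.82e-06) and 3.59 ± 0.40 for CBE+GZ-667161 (2.13e-05). Oas2 had 0.794, 1.06, 0 and 0.615 CPM, then 9.16, 16.7, 4.90 and 3.31 CPM, then 10.9, 11.9, 12.98 and 10.2 CPM. The CBE+GZ-667161 samples of Oas2 lay close together and above both day 40 CBE samples, and its fold changes against PBS were 3.504 ± 0.55 (adjusted p = 3.84e-04) and 4.02 ± 0.52 (1.03e-04). Oas1a had 0.265, 0.851, 0 and 0.308 CPM, then 1.62, 11.1, 2.80 and 5.30 CPM, then 2.95, 3.47, 3.98 and 0.891 CPM. Its highest PBS value and its lowest CBE+GZ-667161 value were nearly equal, and a count of 0, as in PBS replicate 4, allows up to 1.24 CPM there (3 counts). Oas1a passed with 3.56 ± 0.70 for CBE (adjusted p = 0.00301) and 2.80 ± 0.71 for CBE+GZ-667161 (0.0357). The second call was lost when any of 6 single libraries (any PBS replicate but 3, any of CBE+GZ-667161 but replicate 5) was left out, with adjusted p of 0.0624 to 0.116. In addition, 56.1% of the 50-base windows in its last 500 bases are shared with Oas1g, so its counts are uncertain.

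ISG15 is a small ubiquitin-like protein that the enzyme UBA7 activates before it is joined to other proteins. It is removed from them by USP18, which also restrains interferon receptor signalling. All 4 genes of the system passed as higher with CBE. Isg15 (chr4:156199424-156200818, minus strand) had 15.9, 16.4, 18.4 and 14.3 CPM with PBS, 196, 287, 79.1 and 136 CPM with CBE, and 109.97, 171, 208 and 172 CPM with CBE+GZ-667161. The lowest treated sample, CBE replicate 4, was still far above every PBS sample. Isg15 had a fold change of 3.43 ± 0.32 for CBE (adjusted p = 1.47e-06) and 3.36 ± 0.32 for CBE+GZ-667161 (4.79e-06). Uba7, singled out after its values were seen, had 5.56, 5.96, 5.45 and 4.15 CPM, then 19.9, 33.9, 5.25 and 12.9 CPM, then 16.6, 24.9, 21.6 and 27.2 CPM. CBE replicate 4 of Uba7 lay within the PBS range, and both day 40 CBE samples lay below all 4 CBE+GZ-667161 samples. The fold change of Uba7 was 1.72 ± 0.40 for CBE (adjusted p = 0.0101) and 2.09 ± 0.39 for CBE+GZ-667161 (0.0031). It did not pass with the 2 day 40 CBE samples alone (0.80 ± 0.35, adjusted p = 0.155), and 33% of the 50-base windows in its last 500 bases are shared with the overlapping gene Gm20661. Usp18 rose from 2.44 ± 1.07 CPM (SD, n = 4) to 29.3 ± 13.1 with CBE and 25.1 ± 8.94 with CBE+GZ-667161. Trim25, an E3 ligase that acts on the RNA sensor RIG-I, changed least, at 1.06 ± 0.23 for CBE (adjusted p = 0.00558), and its value for CBE+GZ-667161 did not pass (0.69 ± 0.22, adjusted p = 0.133).

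**Figure D3:**
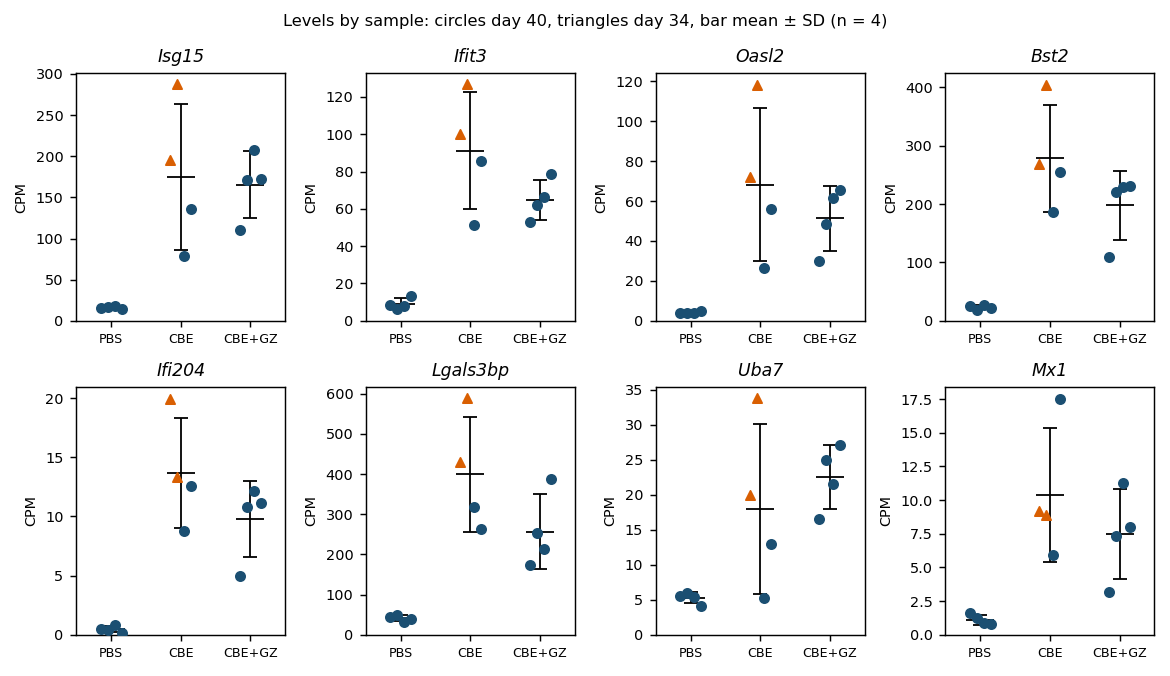
CPM of 8 of the genes in each sample, with circles for day 40, triangles for day 34, and bars for the mean and SD of 4 samples. For Isg15 the treated samples lie between 79.1 and 287 CPM and the PBS samples between 14.3 and 18.4 CPM, and for Uba7 1 CBE sample lies among the PBS samples.

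The sensors of foreign nucleic acid were higher in both treated groups, with 5 of 5 genes passing in each comparison with PBS. Ifi204, a DNA-binding protein of the PYHIN family, had 0.529, 0.425, 0.838 and 0.154 CPM with PBS, 19.9, 13.3, 8.75 and 12.6 CPM with CBE, and 4.998, 10.8, 12.1 and 11.1 CPM with CBE+GZ-667161. It was near the floor in every PBS sample and was detected clearly in every treated one. Ifi204 had the greatest fitted fold change of the 36 genes, at 4.91 ± 0.48 for CBE (adjusted p = 2.65e-06) and 4.44 ± 0.48 for CBE+GZ-667161 (1.61e-05). Eif2ak2, the kinase PKR that halts translation upon binding double-stranded RNA, had 3.44, 3.40, 2.93 and 4.31 CPM, then 23.7, 41.1, 12.96 and 13.2 CPM, then 13.9, 18.6, 24.5 and 17.8 CPM. Both day 40 CBE samples of Eif2ak2 were just below the 4 CBE+GZ-667161 samples, and the fold changes against PBS were 2.60 ± 0.36 (adjusted p = 1.07e-04) and 2.36 ± 0.35 (4.27e-04). Ddx58 (RIG-I), Ifih1 (MDA5) and Dhx58 (LGP2), the RIG-I-like RNA helicases, had fold changes of 2.002 ± 0.32, 2.37 ± 0.36 and 2.87 ± 0.51 for CBE, and of 1.68 ± 0.31, 2.14 ± 0.35 and 2.47 ± 0.51 for CBE+GZ-667161. Dhx58 shares 141 exonic bases with an antisense gene, and the sources used here do not give whether counting used the strand. Exonic overlaps with genes on the opposite strand also occur in Ifi35 (290 bases), Eif2ak2 (174 and 47) and Usp18 (124). Rtp4 (296 bases), Parp14 (110) and Sp100 (104) overlap genes on the same strand.

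The 9 genes grouped here as restriction factors include some whose products act directly on viral particles, membranes or RNA. Of the 9, 7 were tested, and 7 passed as higher with CBE and 6 with CBE+GZ-667161. Bst2 (chr8:71534255-71537456, minus strand), the membrane protein tetherin that holds budding virions to the cell, had 26.2, 18.7, 26.8 and 21.8 CPM with PBS, 268, 405, 186 and 254 CPM with CBE, and 109.7, 221, 229.8 and 232 CPM with CBE+GZ-667161. All treated samples exceeded all PBS samples, and CBE+GZ-667161 replicate 2 stood below the other 3 of its group. Bst2 had the smallest p of the 36 genes, at 3.58 ± 0.27 for CBE (adjusted p = 1.50e-07), and 3.09 ± 0.26 for CBE+GZ-667161 (1.85e-06). Rsad2, the radical-SAM enzyme viperin, had 2.12, 2.13, 0.419 and 2.77 CPM, then 21.0, 24.4, 9.10 and 11.6 CPM, then 8.63, 9.75, 11.9 and 16.5 CPM. The day 40 CBE samples of Rsad2 fell within the CBE+GZ-667161 range, and its fold changes against PBS were 2.96 ± 0.41 (adjusted p = 9.74e-05) and 2.47 ± 0.40 (9.70e-04). Ifitm3, which blocks viral fusion with endosomes, rose from 23.1 ± 5.32 CPM (SD, n = 4) to 133 ± 51.1 and 99.4 ± 18.8. In its last 500 bases 14% of the 50-base windows are shared with other genes.

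The dynamin-like GTPases Mx1 and Mx2, which interfere with viral nucleoproteins, are known to be defective in C57BL/6 mice, yet their transcripts were counted. Mx1 had 1.59, 1.28, 0.838 and 0.769 CPM with PBS, 9.16, 8.89, 5.95 and 17.5 CPM with CBE, and 3.18, 7.36, 11.3 and 8.02 CPM with CBE+GZ-667161. It was the 1 tested gene whose fitted value was higher in day 40 than in day 34 CBE samples (0.36 ± 0.57, adjusted p = 0.813), and CBE replicate 6 was its highest sample. Mx1 passed against PBS with 3.20 ± 0.48 for CBE (adjusted p = 2.26e-04) and 2.71 ± 0.47 for CBE+GZ-667161 (0.00193). Mx2 had 0, 2.34, 1.26 and 1.9998 CPM, then 14.6, 10.6, 3.502 and 5.96 CPM, then 7.04, 11.7, 13.4 and 12.5 CPM. The CBE+GZ-667161 samples of Mx2 lay above both day 40 CBE samples, and its fold changes against PBS were 2.45 ± 0.56 (adjusted p = 0.00821) and 2.86 ± 0.53 (0.00314). Its CBE value with the day 40 samples alone was 1.64 ± 0.63 and did not pass (adjusted p = 0.101).

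The Schlafen genes Slfn2 and Slfn5, named for their roles in lymphocyte quiescence and cell growth, differed in how firmly they were measured. Slfn2 had a fold change of 2.55 ± 0.32 for CBE (adjusted p = 3.65e-05) and 2.01 ± 0.32 for CBE+GZ-667161 (7.13e-04). Slfn5 had 2.04 ± 0.54 for CBE (adjusted p = 0.0212), a call that was lost without any of 5 single libraries (PBS replicates 2, 3 and 5 and CBE replicates 3 and 6, adjusted p of 0.0516 to 0.0759) and with the day 40 CBE samples alone (1.73 ± 0.66, 0.0994), and 1.61 ± 0.53 for CBE+GZ-667161 (adjusted p = 0.138). Its exons overlap an antisense gene over 559 bases. The other restriction factors had too few counts to be tested. Trim30a, a TRIM-family regulator of innate signalling, had 0.265, 0.213, 0 and 0.461 CPM, then 1.62, 5.55, 1.40 and 1.32 CPM, then 1.59, 1.73, 1.05 and 2.23 CPM. The treated samples were listed above the PBS samples, but the 0 of PBS replicate 4 allows up to 1.24 CPM, more than the lowest treated sample. The pooled counts were 5 with PBS, 21 with CBE and 25 with CBE+GZ-667161. Per total count these are 7.63 (95% interval 2.80 to 25.9) and 5.45 (2.05 to 18.2) times the PBS level, exact binomial intervals for counting error only. Samd9l, an antiviral translation inhibitor, had 0, 1.49, 0.419 and 0.461 CPM, then 0, 1.67, 0.700 and 4.64 CPM, then 0.909, 1.52, 0.209 and 0.891 CPM. Its groups overlapped. The pooled counts of Samd9l were 3.14 times the PBS level for CBE (interval 1.42 to 7.30) and 1.39 times for CBE+GZ-667161 (0.585 to 3.38). Of the 19 CBE counts 14 came from replicate 6, and these intervals leave out the spread between libraries. In an edgeR fit without the filter, Samd9l passed against PBS neither for CBE (1.51 ± 0.91, adjusted p = 0.356) nor for CBE+GZ-667161 (0.47 ± 0.94, 0.921). In that fit Trim30a passed for CBE (2.92 ± 0.74, adjusted p = 0.0179) but not for CBE+GZ-667161 (2.39 ± 0.73, 0.114).

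The PARP genes, which encode ADP-ribosyltransferases with antiviral roles, and Dtx3l, the E3 ligase partner of PARP9, all passed as higher with CBE. Parp9 had 3.70, 3.62, 2.51 and 3.38 CPM with PBS, 15.6, 26.7, 7.70 and 12.9 CPM with CBE, and 9.77, 11.7, 8.58 and 13.8 CPM with CBE+GZ-667161. Treated samples of Parp9 were all above the PBS samples, and the fold changes were 2.18 ± 0.34 (adjusted p = 3.70e-04) and 1.68 ± 0.34 (0.00684). Parp12 had 11.6, 7.45, 9.63 and 8.77 CPM, then 32.9, 33.9, 10.2 and 26.8 CPM, then 17.3, 25.8, 31.4 and 27.2 CPM. CBE replicate 4 lay within the PBS range of Parp12, whose fold changes were 1.45 ± 0.31 (adjusted p = 0.00535) and 1.45 ± 0.30 (0.00889). Parp14 had 1.84 ± 0.40 and 1.86 ± 0.39, and for CBE neither Parp12 nor Parp14 passed with the day 40 samples alone (adjusted p = 0.0738 and 0.0801). Dtx3l had 2.14 ± 0.57 for CBE (adjusted p = 0.0227), lost without any of 3 single libraries (PBS replicates 2 and 4 and CBE replicate 2, adjusted p of 0.0591 to 0.0736) and with the day 40 samples alone (0.178), and 1.41 ± 0.58 for CBE+GZ-667161 (adjusted p = 0.277). Parp9 and Dtx3l lie head to head on chromosome 16, and their exons share 458 bases on opposite strands.

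Of the 7 small or nuclear interferon-induced proteins, 6 passed as higher in each treated group. Rtp4, a chaperone of G protein-coupled receptors, had 10.1, 6.17, 7.54 and 11.9986 CPM with PBS, 89.5, 107, 28.7 and 84.4 CPM with CBE, and 53.4, 72.6, 78.1 and 69.0 CPM with CBE+GZ-667161. In CBE replicate 4 it was lowest among the treated samples, yet above all PBS samples, and its fold changes were 3.06 ± 0.33 (adjusted p = 6.81e-06) and 2.90 ± 0.32 (2.13e-05). Ifi27, a small hydrophobic protein of mitochondria and the nuclear envelope, had 75.9, 114, 128 and 99.2 CPM, then 297, 393, 190.5 and 237 CPM, then 273, 322, 321 and 276 CPM. Both day 40 CBE samples of Ifi27 were below the 4 CBE+GZ-667161 samples, and the fold changes were 1.42 ± 0.20 (adjusted p = 1.00e-04) and 1.52 ± 0.19 (8.42e-05). Its relative Ifi27l2a rose further, from 10.8 ± 6.10 CPM (SD, n = 4) to 160.97 ± 98.3 and 149 ± 44.2. Ifi44 had 1.06, 0.425, 0.419 and 1.08 CPM, then 7.01, 21.7, 3.85 and 6.29 CPM, then 4.09, 6.06, 6.28 and 4.45 CPM. CBE replicate 3 of Ifi44 was far above the other CBE samples, and the fold changes against PBS were 3.51 ± 0.56 (adjusted p = 4.17e-04) and 2.69 ± 0.56 (0.00879). Sp100, a nuclear body protein, had 3.44, 2.55, 0.419 and 3.69 CPM, then 7.01, 12.8, 1.75 and 8.61 CPM, then 4.09, 7.58, 7.95 and 6.24 CPM. CBE replicate 4 was within its PBS range, and neither 1.42 ± 0.51 (adjusted p = 0.0889) nor 1.25 ± 0.50 (0.26) passed. Without CBE replicate 4 the CBE value of Sp100 was 1.79 ± 0.44 and passed (adjusted p = 0.0187). Xaf1, a partner of the apoptosis inhibitor XIAP, and Ifi35, which binds NMI, had 2.28 ± 0.26 and 1.98 ± 0.29 for CBE and 2.15 ± 0.25 and 1.97 ± 0.29 for CBE+GZ-667161.

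The secreted glycoprotein Lgals3bp, which binds galectins, and the galectin Lgals9 were higher in both treated groups. Lgals3bp had 44.2, 48.7, 31.8 and 38.6 CPM with PBS, 429, 588, 317 and 262 CPM with CBE, and 174, 253, 213 and 388 CPM with CBE+GZ-667161. Of its 4 CBE+GZ-667161 samples 3 were below every CBE sample, and replicate 5 lay inside the CBE range. The fold change of Lgals3bp was 3.27 ± 0.27 for CBE (adjusted p = 3.82e-07) and 2.64 ± 0.27 for CBE+GZ-667161 (8.71e-06). Lgals9 rose from 16.6 ± 2.49 CPM (SD, n = 4) to 70.8 ± 26.6 and 50.5 ± 12.8.

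Between the mice given CBE with GZ-667161 and those given CBE alone, none of the effector genes passed. The count was 0 of 36, where 1.28% of all tested genes passed in either direction. DESeq2 and limma-voom also called 0, and their shares of all tested genes are not given here. At an unadjusted p under 0.05 stood 1 gene of the 36 (16.5% of all tested genes), Lgals3bp, at -0.64 ± 0.24 (edgeR adjusted p = 0.202, 95% interval -1.15 to -0.12). The fitted value was below 0 in 30 genes and above 0 in 6 (51.2% of all tested genes were above 0), with a median of -0.28, where the median over all tested genes was 0.01. The 0 calls do not show that the groups were alike. Over the 36 genes the 95% intervals reached as low as -1.92 and as high as 1.40; 19 lay wholly between -1 and 1, and 14 included a fall to a log2 value of -1. Isg15 was at -0.07 (interval -0.65 to 0.51), Ifit3 at -0.48 (-0.98 to 0.01), Bst2 at -0.49 (-0.98 to 0.00) and Ifi204 at -0.47 (-1.16 to 0.23). The lowest ratios of mean CPM were those of Ifi44 (0.538) and Oas1a (0.542) among tested genes, and the highest those of Oas2 (1.35) and Mx2 (1.29). Samples of the groups did not overlap in 1 gene, Trim25, which was lower in all 4 CBE+GZ-667161 samples, where 3.98% of all tested genes were.

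The direction of this comparison differed between the 2 pairs of CBE samples. Against the 2 CBE samples of day 40, the age of the CBE+GZ-667161 samples, the median was 0.21, and 25 of 36 genes had a fitted value above 0 (52.1% of all tested genes). Uba7 alone passed, as higher with GZ-667161 (1.29 ± 0.33, adjusted p = 0.0412), where 2.42% of all tested genes passed as higher. In 5 genes, Oas2, Uba7, Eif2ak2, Mx2 and Ifi27, all 4 CBE+GZ-667161 samples were above both day 40 CBE samples, and in Trim25 they were below. For all tested genes these shares were 15.6% and 15.4%. Against the 2 CBE samples of day 34, the median was -0.70 and 36 of 36 genes were below 0, where 48.9% of all tested genes were above 0. None passed in edgeR, against 0.0147% of all tested genes (20 at an unadjusted p under 0.05, against 11.2% of all tested genes). In 20 of the 38 genes all 4 CBE+GZ-667161 samples were below both day 34 samples, where 10.7% of all tested genes were. In the second of these comparisons, GZ-667161 and the age difference cannot be told apart. In the first, CBE replicate 4 lay below the 4 CBE+GZ-667161 samples in the median log2 difference from the PBS mean (1.64, against 1.81 to 2.399). CBE replicate 6, at 2.25, lay within their range. Each comparison has 2 CBE samples, and 1 CBE sample also moves the result. Without CBE replicate 3 the median over all CBE samples was -0.05, with 18 genes above and 18 below 0, and without CBE replicate 4 it was -0.50.

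**Figure D4:**
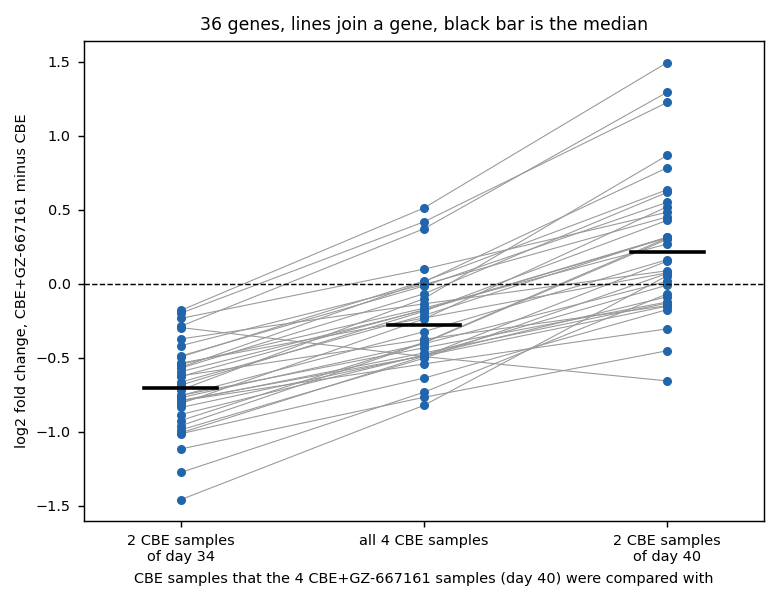
Each point is the log2 fold change of 1 of the 36 tested genes between the 4 CBE+GZ-667161 samples and the CBE samples named below it, lines join the same gene, and the black bar is the median. The median moves from -0.70 against the day 34 samples through -0.28 against all 4 to 0.21 against the day 40 samples.

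Within the CBE group the effector genes were lower at day 40 than at day 34, though no gene passed in edgeR. The median log2 difference was -0.93, and 35 of 36 tested genes were below 0 (47.5% of all tested genes were above 0), where the median over all tested genes was -0.02. Of the 36, 0 passed, against 0.613% of all tested genes, and 25 had an unadjusted p under 0.05, against 15.1%. Both day 40 samples lay below both day 34 samples in 33 of the 38 genes, where 23.5% of all tested genes did. The smallest adjusted p was that of Isg15, at -1.19 ± 0.28 (adjusted p = 0.0689). Eif2ak2 followed at -1.33 ± 0.32 (0.0729), Uba7 at -1.58 ± 0.39 (0.0782), Ifi27l2a at -1.58 ± 0.41 (0.0872) and Ifit3b at -1.35 ± 0.36 (0.093). DESeq2 called 4 of these genes, Isg15, Eif2ak2, Uba7 and Ifit3b, as lower at day 40, where it called 1.79% of all tested genes in either direction. Of 7 microglial markers 2, Csf1r (-0.71 ± 0.15, edgeR adjusted p = 0.0437) and Itgam (-1.43 ± 0.26, 0.0276), passed as lower at day 40, and the median of the 7 was -0.84; their part in the effector gene values was not tested. The ages were also sequenced to different depths, with 1753626 and 1836002 counts at day 34 and 2995620 and 3043318 at day 40, and age cannot be told apart from anything else that separated the 2 pairs of samples. Both ages lay above PBS. With the day 40 CBE samples alone, 29 of 36 genes passed as higher than PBS (7.67% of all tested genes) with a median of 2.08, and with the day 34 samples alone 36 of 36 did (4.78%) with a median of 3.03. All PBS samples were of day 40, so in the fit with the day 34 samples CBE and the age difference cannot be told apart. The comparison of all CBE samples with PBS also holds these day 34 samples.

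Within the CBE group most of the genes had the same highest and the same lowest sample. CBE replicate 3 was the highest CBE sample in 32 of the 38 genes and CBE replicate 4 the lowest in 33, where each was so for 27.1% and 25.7% of all tested genes. CBE+GZ-667161 replicate 2 was the lowest of its group in 30 genes (25.6% of all tested genes), while replicates 4 and 5 were the highest in 18 and 16 (25.2% and 26.9%). Among the PBS samples the highest was spread over the 4 replicates (7, 11, 8 and 12 genes for replicates 2, 3, 4 and 5), and replicate 4 was the lowest in 19 (25.4%). The median log2 difference from the PBS mean was 2.58 and 2.90 in the day 34 CBE samples, 1.64 and 2.25 in the day 40 CBE samples, and 1.81, 2.22, 2.399 and 2.25 in the CBE+GZ-667161 samples. The CBE+GZ-667161 values lay within the range of the 4 CBE values.

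Markers of microglia, the resident macrophages of the brain, moved in the same direction. Of 7 markers, 5 (Cx3cr1, Csf1r, Aif1, Itgam and C1qa) passed as higher than PBS in each treated group, P2ry12 and Tmem119 did not pass in either, and none was at 0. Their summed level ran from 451 to 530.4 CPM with PBS, from 1323 to 2269 CPM with CBE and from 940.4 to 1611 CPM with CBE+GZ-667161. The sum was 1773 and 2269 CPM at day 34 and 1323 and 1340.3 CPM at day 40, and it was lowest of its group in CBE+GZ-667161 replicate 2. Of 7 astrocyte markers, 4 passed as higher with CBE and 1, Gfap, with CBE+GZ-667161, and the sums were 3539 to 4198, 4762 to 5029 and 3860 to 4332 CPM. Of the 8 border macrophage and monocyte markers 4 were tested and 1, Ms4a7, passed in both groups, with sums of 10.3 to 17.2, 21.4 to 46.9 and 14.5 to 38.3 CPM. T and NK cell markers were sparse, at 1.68 to 13.4, 7.003 to 29.1 and 5.45 to 28.8 CPM in sum, with Cd3d at 0 in all CBE samples, and neither of the 2 tested passed. Among plasmacytoid dendritic cell markers Bst2, itself one of the effector genes, passed and Siglech and Tcf4 did not. Other lists moved with CBE as well. Of 4 ependymal markers 2 passed as higher (sums of 23.3 to 54.5 CPM with PBS and 58.1 to 87.2 CPM with CBE), and of 6 neuronal markers 3, Tubb3, Map2 and Stmn2, passed as lower (3752 to 4299.8 and 2759 to 3697 CPM). Of 5 pericyte and smooth muscle markers 2 passed as lower, as did 1 of 6 endothelial and 1 of 5 erythroid markers. None of these lists had a marker that passed with CBE+GZ-667161 against PBS. The choroid plexus sum was highest in CBE replicate 4, at 527 CPM, and in CBE+GZ-667161 replicate 2, at 338 CPM, the samples lowest in most effector genes of their groups, and ran from 13.4 to 131 CPM in the others. The part of these cells in the effector gene values was not tested.

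Other genes of the pathway were read from lists of 65 further interferon-stimulated genes and 50 genes upstream of them. Of the further interferon-stimulated genes 38 were tested; 26 passed as higher with CBE and 25 with CBE+GZ-667161 against PBS, 0 as lower, and 0 passed between the treated groups. The 6 with the smallest p were Ifi30, a lysosomal thiol reductase (2.58 ± 0.22, adjusted p = 4.36e-07), Phf11b (3.31 ± 0.31), the deaminase Apobec3 (1.87 ± 0.23), the synthetase Oas3 (4.75 ± 0.60), Phf11d (3.44 ± 0.43) and Tor3a (1.81 ± 0.23), all for CBE. Adar, the RNA-editing enzyme, and Cmtr1, a cap methyltransferase, were the only 2 of the 38 fitted below 0 for CBE, at -0.15 ± 0.11 (adjusted p = 0.406) and -0.09 ± 0.14 (0.733). Upstream, the 21 listed interferon ligands had no entry in the count table, so they could not be tested and their levels are unknown. Of 4 tested receptor chains 3 passed as higher with CBE, Ifnar2 (0.79 ± 0.20), Ifngr1 (1.12 ± 0.19) and Il10rb (1.15 ± 0.23), and 1, Ifngr1, with CBE+GZ-667161. None of the kinases Jak1, Jak2 and Tyk2 passed. The factors Stat2 (1.25 ± 0.16 for CBE), Irf9 (2.02 ± 0.25), Irf7 (4.06 ± 0.29) and Irf1 (1.42 ± 0.39) passed in both treated groups, and Irf3 in neither. Of 6 tested genes that carry signals from the sensors, 1, the adaptor Myd88, passed with CBE and 0 with CBE+GZ-667161. Among the negative regulators Socs3 (1.87 ± 0.42) and Ptpn6 (2.72 ± 0.31) passed with CBE, Ptpn6 with CBE+GZ-667161 as well, and Socs1 in neither.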

How the data were processed

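Raw counts per gene symbol, as deposited by the authors, were unnormalized whole numbers. The submitters' processing notes name mm10, HISAT 0.1.6, cutadapt, DESeq2 and HTSeq. Annotation, strand use and the handling of molecular identifiers are not given in the sources used here. A second deposited table of normalized signal equalled the counts times 1 constant per library and was otherwise unused. The authors' deposited table of log2 fold changes and p-values was used only to count its calls. Of 16505 entries, 23 with a garbled date in place of a symbol (0.266% to 0.347% of counts) were left out. Genes were filtered with filterByExpr (minimum count 10, minimum total 15), scaled with TMM and tested, two-sided, with edgeR 4.0.16 (glmQLFit, glmQLFTest) in 1 fit of 3 groups, or of 4 groups with the CBE ages apart (13372 genes). Alternatives were other scalings and filters, DESeq2 1.42.0, limma-voom (limma 3.58.1), stricter thresholds, fits of fewer samples, a term for Xist or for the replicate number, and fits without 1 library. Simulated counts with known changes were used to test the fits. Gene positions and transcript ends are from GENCODE for mm10 and promoters from RefSeq. The genes given per sample were, for each role, those with the smallest p and the most counts, plus Isg15, Ifit3, Ifit3b, Mx1 and Rsad2, those not passing for CBE against PBS, those with the extreme ratios between the treated groups, and those passing between the treated groups or ages. Members, lists and rules were chosen with earlier results of these data known. Some listed genes are not reported here. R 4.3.3 and Python 3.11.15 were used.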

Additional observations from a re-analysis of the deposited data

Results flagged for a closer look

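Within the 3 groups, 114 sets of 4 values (38 genes in each group) were examined for a sample that stood apart by Dixon's gap ratio and 3 were found; chance alone marks about 1 in 20 sets. Bst2 in CBE+GZ-667161 replicate 2 was 109.7 CPM, where the other 3 samples of the group lay between 221 and 232 CPM. Slfn2 in PBS replicate 4 was 1.26 CPM, where the other PBS samples lay between 3.23 and 3.62 CPM. Trim30a in CBE replicate 3 was 5.55 CPM, where the next CBE sample was at 1.62 CPM.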

How the results depend on the processing

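Leaving out each library in turn gave 33 to 36 genes passing for CBE against PBS (medians 2.34 to 2.78), 31 to 32 for CBE+GZ-667161 against PBS (2.29 to 2.53), 0 in each case between the treated groups (-0.50 to -0.05) and 0 between the CBE ages (-1.39 to -0.55). Over all alternatives 29 of the 35 and 31 of the 32 calls against PBS were kept in each setting that tested them. Between the treated groups the day 40 CBE samples alone gave 1 passing gene and a median of 0.21, and the day 34 samples alone, chosen after seeing the data, a median of -0.70. Among the genes with extreme ratios between the treated groups, Ifi44 turned to 0.0536 (day 40), and Oas2 to -0.18 and Mx2 to -0.20 (day 34), and none passed. Other genes changed sign too. The fitted value was above 0 in 6 genes with all CBE samples, in 25 with those of day 40 and in 0 with those of day 34. For all tested genes these shares were 51.2%, 52.1% and 48.9%. Between the CBE ages DESeq2 gave 4, where it called 1.79% of all tested genes, and a fit of only those samples 2 (Ifi27l2a and Lgals3bp). The replicate block gave 3 (Oasl2, Isg15 and Ifitm3) with a median of -1.79, where the ages share no number and are compared only through the other groups. The shares of all tested genes called in the block and in the fit of only those samples are not given here, so these counts have no background to be read against. For the same-numbered samples of the groups the correlations of deviations ran from -0.08 to 0.24, so the numbers were not taken as a pairing, and the block gave 34, 32 and 0 in the other 3 comparisons. The cause of these differences was not tested. Over all genes, calls between the treated groups were 1.28% of those tested with all CBE samples, 692 of 13606 with those of day 40 and 2 of 13635 with those of day 34. Depth limits the genes with few counts, such as Oas1a, Dtx3l, Slfn5, Trim30a and Samd9l.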
